A study of Rattus norvegicus with 5 samples.

Results

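Nuclei with pericyte and vascular fibroblast markers were examined in snRNA-seq libraries of the ventral tegmental area (VTA), the midbrain region that holds dopamine neurons. A barcode was a member when at least 2 of Rgs5, Abcc9, Vtn, Dcn and Colec12 were detected with at least 3 UMIs summed, and when Cldn5, Flt1 and Cx3cr1 (markers of endothelial cells and microglia) had 0 UMIs. Members also had Mog (an oligodendrocyte gene) under 10 per 10000 UMIs and at most 1 UMI of Nyap2. Of 35234 barcodes that passed the filters on depth, genes and mitochondrial RNA, 59 were members. Of these, 48 had Rgs5 or Abcc9 and no Dcn (Rgs5/Abcc9 nuclei), 9 had Dcn and neither Rgs5 nor Abcc9 (Dcn nuclei), 2 had Vtn and Colec12 alone, and 0 had Dcn with Rgs5 or Abcc9. The 5 libraries came from 5 adult male Sprague-Dawley rats, 1 library per rat. All 5 carry the same treatment label, saline, while the paper describes the rats as drug-naïve, so the series has no treatment contrast. Bilateral punches were combined for each sample.

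Pericytes are mural cells: they sit in the basement membrane of capillaries, wrapped around the endothelium, and depend on PDGF-B from endothelial cells acting on their receptor Pdgfrb. They can change tone through potassium channels, calcium entry and cyclic nucleotides, whereas smooth muscle cells of arterioles carry the contractile apparatus (Acta2, Tagln, Myh11). Vascular and leptomeningeal fibroblasts lie outside the mural layer, make fibrillar collagens and decorin (Dcn), and express many solute transporters.

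Total counts per library ranged from 10193355 to 88576210 UMIs, and passing barcodes from 2733 to 18927. The members held 134671 UMIs in all. Median depth was 1524 UMIs in Rgs5/Abcc9 nuclei, 2131 in Dcn nuclei, 2093 in 227 endothelial nuclei of the same libraries, and 2415 in 11529 oligodendrocytes. Endothelial nuclei, the comparison class, had at least 2 of Cldn5, Flt1, Slco1a4, Adgrl4 and Mecom with at least 3 UMIs summed, at least 1 UMI of Cldn5 or Flt1, and under 2 of the 5 member markers. The mitochondrial filter removed 4801 and 18183 barcodes in rats 1 and 2, against 74 to 1375 in the others. A pair of libraries shared 2 to 27 passing barcode sequences, and 1 member shared its sequence with a passing barcode of another library. If every UMI of the neuron and oligodendrocyte marker lists were free RNA, free RNA would make up 11.6% to 72.2% of the summed counts of each group and rat. This upper share was higher in Rgs5/Abcc9 than in Dcn nuclei in each rat with both, at 72.2% against 27.0% in rat 2, 44.1% against 11.6% in rat 3 and 57.4% against 17.9% in rat 5.

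Rat 1 had 1 member, rat 2 had 27, rat 3 had 2, rat 4 had 11 and rat 5 had 18. As a share of passing barcodes these were 0.0366% in rat 1, 0.143% in rat 2, 0.0507% in rat 3, 0.211% in rat 4 and 0.407% in rat 5. The exact 95% binomial interval of rat 5 (0.241 to 0.643%) lay above that of rat 2 (0.0940 to 0.207%), and these intervals cover counting error only. Against endothelial nuclei, of which the rats had 22, 139, 5, 20 and 41, there were 4.55, 19.4, 40.0, 55.0 and 43.9 members per 100. Rats 1 and 3 therefore say little about any gene, and Rgs5/Abcc9 nuclei could be summed over 5 or more nuclei only in rats 2, 4 and 5.

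**Figure D1:**
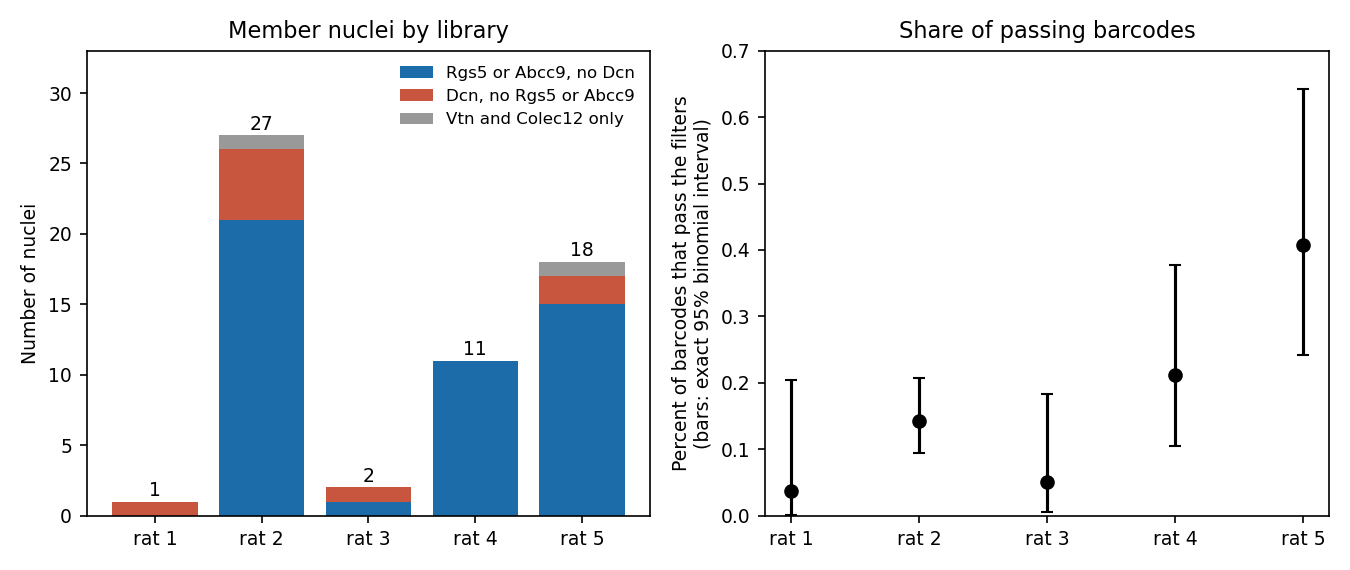
Left, number of member nuclei per library, stacked by marker combination. Right, members as a percent of barcodes that pass the filters, with exact 95% binomial intervals. Rats 2, 4 and 5 hold 27, 11 and 18 of the 59 members, and rat 4 has no Dcn nucleus.

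The members were chosen by the UMI counts of these marker genes, so the values of the 5 genes are a description. Rgs5, a regulator of G protein signalling, was detected in 42 of the 48 Rgs5/Abcc9 nuclei, with up to 13 UMIs in 1 nucleus. Abcc9, the sulfonylurea receptor subunit of a vascular ATP-sensitive potassium channel, was detected in 41 and reached 15 UMIs. Both were present in 35 nuclei. Vtn, which encodes vitronectin, was found in 30 and Colec12, a scavenger receptor, in 18. The most frequent combination was Rgs5, Abcc9 and Vtn, in 14 nuclei. Dcn nuclei rested on little: together they held 16 Dcn UMIs, 4 had Dcn with Colec12, 3 had Dcn with Vtn, and 2 had all of these. Of the members, 9 sat at exactly 3 marker UMIs, and 19 barcodes just outside had 2 markers at 1 UMI each. A further 86 barcodes met every condition except that Cldn5 or Flt1 was detected. These held 68.5 pericyte-list and 44.6 endothelial-list UMIs per 10000, so low endothelial RNA in the members is set in part by the rule. The limit of under 2 member markers kept these 86 barcodes out of the endothelial nuclei too. Low pericyte-list RNA in endothelial nuclei is thus also set in part by the choice of nuclei.

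Marker genes that the rule did not use bear on the name pericyte. The pericyte list of 14 genes made up 94.2 of 10000 UMIs in Rgs5/Abcc9 nuclei, with 70.8 in rat 2, 175 in rat 4, 89.2 in rat 5 and 23.0 in the single nucleus of rat 3. It made up 23.6 in endothelial nuclei, of which the transcription factor gene Ebf1 gave 20.6, and 0.624 in oligodendrocytes, the latter serving as the level that free RNA leaves in cells of another type. In Dcn nuclei it made up 40.2, with 4.69, 50.7, 67.6 and 9.64 in rats 1, 2, 3 and 5, and its member Slc6a20 was higher there (27.45) than in Rgs5/Abcc9 nuclei (7.65). Per nucleus, the list had a median of 21 UMIs and a range of 0 to 54. At least 10 UMIs were seen in 35 of the 48 nuclei, under 5 in 9 and none in 3. The label pericyte thus fitted most but not all nuclei with Rgs5 or Abcc9. The smooth muscle list of 14 genes made up 8.80 of 10000 UMIs in Rgs5/Abcc9 nuclei, against 4.43 in endothelial nuclei and 0.678 in oligodendrocytes. It was higher in Dcn nuclei, at 29.7, with 0, 21.9, 125 and 32.8 in rats 1, 2, 3 and 5. Of its genes Acta2, Tagln, Myh11, Cnn1, Des and Lmod1, picked for their part in contraction after values were seen, together gave 5 UMIs, in 5 Rgs5/Abcc9 nuclei. The fibroblast list of 17 genes, which includes Lama2, made up 24.0 of 10000 UMIs (18.5, 42.1 and 23.6 in rats 2, 4 and 5), against 60.9 in Dcn nuclei (9.385, 58.2, 15.6 and 108 in rats 1, 2, 3 and 5), 4.895 in endothelial nuclei and 0.713 in oligodendrocytes. Of 7 genes picked from several lists after their values were seen (Col1a1, Col3a1, Lum, Slc7a11, Slc22a6, Igfbp2 and Aldh1a2), 23 UMIs were counted over all 48 nuclei. One exception was a nucleus of rat 4 with 3 Rgs5 and 6 Vtn UMIs, 0 UMIs of the pericyte list, 14 of Bmp6 and 6 of Lama2 among 1966 UMIs, which is closer to the Dcn nuclei described below.

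**Figure D2:**
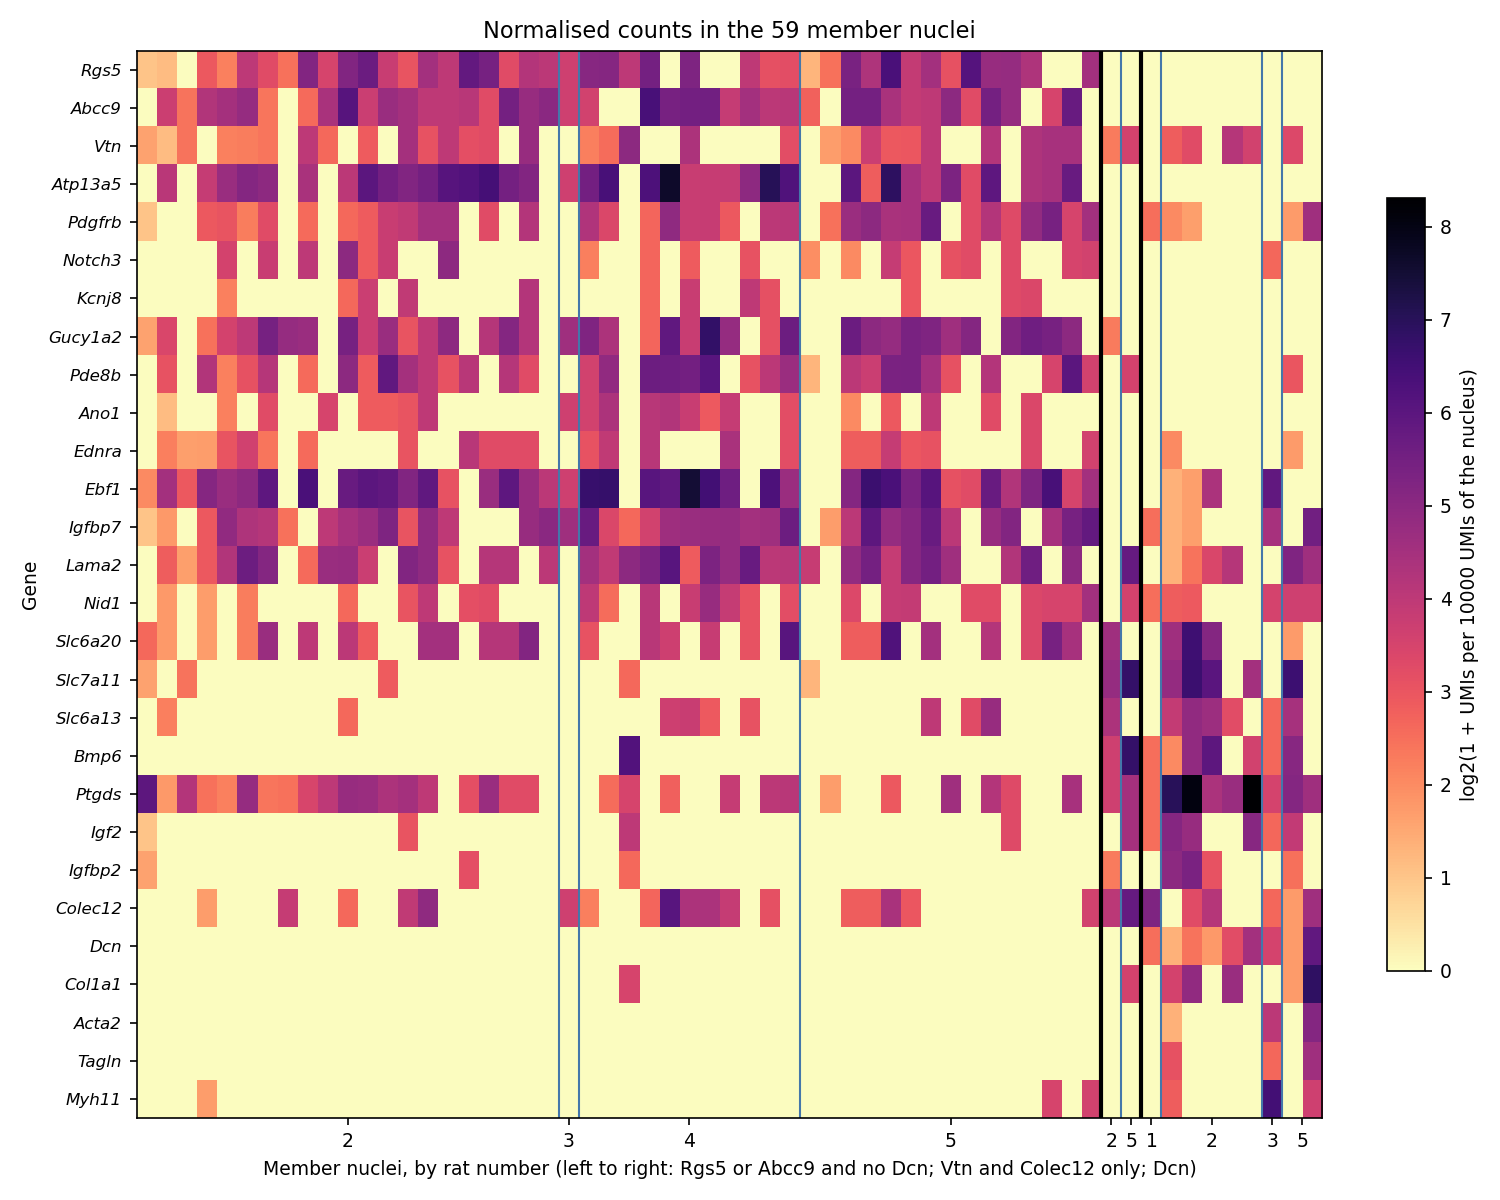
Each column is 1 of the 59 member nuclei and each row a gene, with colour showing log2(1 + UMIs per 10000 UMIs of that nucleus). Black lines part the marker groups and blue lines the rats. Atp13a5, Gucy1a2 and Ebf1 run across most Rgs5/Abcc9 nuclei, whereas Slc7a11 and Bmp6 lie with some of the Dcn nuclei and with both Vtn and Colec12 nuclei.

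Rgs5/Abcc9 nuclei were compared with endothelial nuclei, the other cell of the capillary wall, on UMI counts summed per rat. Among the genes higher in Rgs5/Abcc9 nuclei were Atp13a5, Pdgfrb, Notch3, Gucy1a2, Pde8b and Ano1, and among those lower were Agbl1, Emcn, Tek, Kitlg and Pdgfd. With edgeR's quasi-likelihood test, rat as a block and Benjamini-Hochberg adjustment (threshold 0.05), 126 of 3330 genes were higher (3.78% of those tested) and 255 were lower (7.66%). These shares are the background for every list tally of this comparison. With the size factors of DESeq2 the split was 157 higher and 200 lower, and the median log2 difference of all genes moved from -0.16 to 0.06. DESeq2's own test called 101 genes. The genes of either selection rule were kept out of the test. The 3 rats with both sums were rats 2, 4 and 5, and all levels below are UMIs per 10000 UMIs of a sum, in that order.

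Of the pericyte list, 10 genes were tested, 7 rose and 0 fell, with a median log2 fold change of 3.75 against -0.16 over all genes. Over all genes tested, 3.78% rose and 7.66% fell. The filter on low counts could be met in a single sum, so genes scarce in endothelial nuclei could enter through Rgs5/Abcc9 sums alone. Such genes could hardly be called lower, so the tally is set in part by the filter, and in part by the choice of nuclei. Atp13a5, a P5-type ATPase much used as a brain pericyte marker, was at 20.5, 60.2 and 22.6 in Rgs5/Abcc9 nuclei and 0.133, 2.19 and 0 in endothelial nuclei. Every Rgs5/Abcc9 value was above every endothelial one. On the log2 scale the groups were 6.08 ± 0.45 apart (approximate SE, adjusted p = 2.02e-38). A UMI was found in 38 of 48 nuclei (79.2%), against 0.434% of oligodendrocytes. Pdgfrb, the PDGF receptor on which pericytes depend, was at 4.49, 11.7 and 14.4 against 0.186, 0 and 0, a log2 fold change of 5.61 ± 0.54 (adjusted p = 6.63e-23). It was found in 36 of 48 nuclei and in 0.278% of oligodendrocytes. Cspg4, the proteoglycan NG2, which oligodendrocyte precursors also carry, was at 1.98, 5.33 and 2.05 against 0.186, 0.182 and 0 (adjusted p = 6.18e-05). Slc6a20, a proline transporter gene, was at 6.47, 9.59 and 8.89 against 1.38, 0.182 and 0, with a log2 fold change of 3.55 ± 0.47. The groups did not overlap for Pdgfrb, Cspg4 or Slc6a20. The share of all tested genes without overlap was not counted, so statements of this kind only describe genes already called.

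Notch3, a receptor that mural cells use to read ligands on endothelium, was at 3.95, 2.13 and 3.76 against 0.106, 0 and 0.1003, with a log2 fold change of 4.99 ± 0.86 (adjusted p = 2.76e-07). Heyl, a transcriptional repressor induced by Notch, was at 1.08, 2.67 and 1.37 against 0.0531, 0.365 and 0.201 (log2 3.05 ± 1.04, adjusted p = 0.0316), and without rat 5 its adjusted p was 0.316. Neither gene overlapped between groups. Of the 25 genes listed for mural recruitment 14 were tested: Pdgfrb, Notch3 and Heyl rose, and Tek, Tie1, Eng and Bmpr2 fell, though DESeq2 did not call Eng or Bmpr2 (adjusted p = 0.0544 and 0.0998). These last are receptors for angiopoietin and for the BMP and TGF-β families, which endothelial cells carry. Tek, the angiopoietin receptor, was at 0.539, 0 and 0 against 4.38, 2.92 and 6.42, a log2 fold change of -4.16 ± 0.67 (adjusted p = 2.87e-08). Tie1 had 0 UMIs in Rgs5/Abcc9 nuclei and 81 in endothelial nuclei, at least 4.37-fold higher in the latter when 0 is taken as 3 counts over the group. Jag1, a Notch ligand, had 3 UMIs in Rgs5/Abcc9 nuclei and did not pass the test (adjusted p = 0.995).

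**Figure D3:**
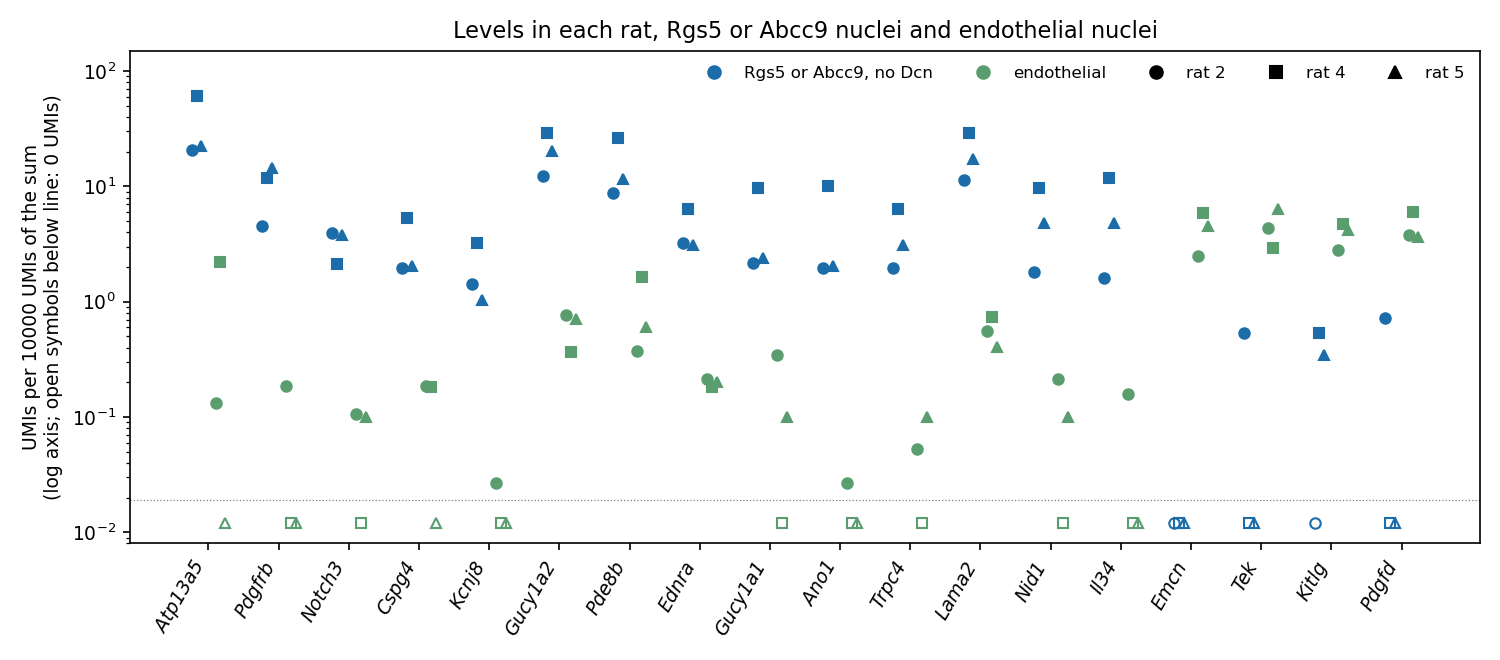
Levels of selected genes in Rgs5/Abcc9 nuclei (blue) and endothelial nuclei (green) of rats 2, 4 and 5, as UMIs per 10000 UMIs of the summed nuclei, on a log axis with open symbols for 0 UMIs. For the genes from Atp13a5 to Il34 all blue symbols lie above the green ones, and for the last 4 genes, Emcn to Pdgfd, all lie below.

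Among the lists, that of genes for vascular tone held the most calls and the most tested genes. Of 33 such genes in the files 17 were tested, and 12 rose and 0 fell, with a median log2 fold change of 2.48. The 12 kept their call under every alternative in which they were tested except Kcnj8, Pde3a, Pde5a and Cacna1c. Over all genes tested 3.78% rose, and of the pericyte list, which shares Kcnj8 and Pde5a, 7 of 10. The filter again let genes scarce in endothelial nuclei enter through Rgs5/Abcc9 sums, so this tally is set in part by it. The whole list stood at 76.9 per 10000 UMIs in Rgs5/Abcc9 nuclei, 13.2 in endothelial nuclei, 19.9 in Dcn nuclei and 25.8 in all remaining barcodes. Gucy1a2, a subunit of the guanylyl cyclase that senses nitric oxide, was at 12.4, 29.3 and 20.2 against 0.770, 0.365 and 0.702, a log2 fold change of 4.52 ± 0.43 (adjusted p = 4.92e-23). It was detected in 38 nuclei (79.2%), and in 5.81% of oligodendrocytes. The subunit gene Gucy1a1 was at 2.16, 9.59 and 2.39 against 0.345, 0 and 0.1003 (log2 3.71 ± 0.72). For Gucy1b1, the shared beta subunit, the levels were 0.898, 3.73 and 1.37 against 0.505, 0.365 and 0.201, which did not pass (adjusted p = 0.155).

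Among phosphodiesterases, Pde8b, which breaks down cAMP, was at 8.80, 26.1 and 11.6 against 0.372, 1.64 and 0.602 (log2 4.08 ± 0.44, adjusted p = 3.14e-18). Pde3a was at 5.39, 7.99 and 6.84 against 1.46, 1.82 and 1.30 (log2 1.91 ± 0.41), and DESeq2 gave it an adjusted p of 0.127. Pde5a, which breaks down cGMP, had an adjusted p of 0.0377 that DESeq2 put at 0.577. So Pde8b differed most, and the Pde5a call was the weakest of these.

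Other genes of the list that rose code for channels and receptors. Trpc4, a receptor-operated cation channel, was at 1.98, 6.395 and 3.08 against 0.0531, 0 and 0.1003 (log2 5.12 ± 0.88). Ano1, the calcium-activated chloride channel that depolarises contractile cells, was at 1.98, 10.1 and 2.05 against 0.0266, 0 and 0 (log2 6.32 ± 0.97, adjusted p = 5.2e-09). For both channels the lowest Rgs5/Abcc9 value exceeded the highest endothelial value. Itpr1, the IP3 receptor, was at 3.95, 7.46 and 4.10 against 0.850, 1.09 and 0.301 (log2 2.48 ± 0.45). Ednra, the endothelin A receptor through which endothelial endothelin constricts vessels, was at 3.23, 6.395 and 3.08 against 0.213, 0.182 and 0.201 (log2 3.91 ± 0.71). Cacna1c, the L-type calcium channel, had a log2 fold change of 1.93 ± 0.65 (adjusted p = 0.0306) that DESeq2 did not call (adjusted p = 0.452).

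Kcnj8 encodes the pore that pairs with Abcc9 in the ATP-sensitive potassium channel, and in RefSeq (GRCr8) no other gene starts between the 2 genes. Its levels were 1.44, 3.20 and 1.03 against 0.0266, 0 and 0, a log2 fold change of 5.49 ± 1.38 (adjusted p = 0.00121). Without rat 5 the adjusted p was 0.077. It was detected in 12 Rgs5/Abcc9 nuclei, 11 of which also had Abcc9, although 41 of 48 nuclei had Abcc9, so the overlap by itself says little.

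Matrix genes moved in both directions. Lama2, the laminin α2 chain, was at 11.3, 29.3 and 17.4 against 0.558, 0.730 and 0.401 (log2 4.68 ± 0.44, adjusted p = 1.93e-23), and 37 nuclei (77.1%) had a UMI against 2.58% of oligodendrocytes. Nid1, the nidogen that links laminin to collagen IV, was at 1.80, 9.59 and 4.79 against 0.213, 0 and 0.1003 (log2 4.17 ± 0.60). Of 16 basement membrane genes 12 were tested, and Nid1, Col4a4 and Lamc3 rose. Col4a5 fell, but its call was lost under 6 alternatives, and Col4a4 and Lamc3 each lost theirs under DESeq2. Col4a1, the main collagen IV chain of capillaries, was at 0.539, 3.20 and 0.684 against 1.75, 2.92 and 2.61 and did not pass the test (adjusted p = 0.139). Of the fibroblast list 10 genes were tested, Lama2, Mgp and Cped1 rose and Fn1 fell. Fn1 (fibronectin) had 0 UMIs in Rgs5/Abcc9 nuclei and 71 in endothelial nuclei, at least 3.83-fold higher there, and DESeq2 did not call it (adjusted p = 0.161). Mgp and Cped1 also missed the threshold under DESeq2 (adjusted p = 0.371 and 0.217). Of the fibroblast transporter list 6 genes were tested, with a median log2 fold change of -1.29. Only Slc6a13 passed, and it rose (log2 1.95, adjusted p = 0.0227), but its call was lost under at least 1 alternative.

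The promoter sequences of genes higher in Rgs5/Abcc9 nuclei than in endothelial nuclei were searched for TGGGAA, the core of the site of RBPJ, the DNA-binding partner of Notch receptors, on both strands, because Notch3 and its target Heyl were among those genes. The window was the 250 bases before the start in RefSeq (GRCr8). A match was found in 13 of 71 such genes with a promoter in the table (18.3%), in 18.9% of all tested genes and in 21.3% of 24206 promoters. Among the genes lower in Rgs5/Abcc9 nuclei the share was 17.8% (31 of 174), so these shares lay close together. Of the 12 higher genes named for the size of their difference, which had at least 20 UMIs and the same sign in every rat, 8 had a promoter and 2 of these held a match: Lama2, at chr1:19491896-19492145 on the plus strand, and Gucy1a2, at chr8:8784962-8785211 on the plus strand. They are shown 5′ to 3′ with the match in capitals. A match is only a run of letters, and no binding was measured.
Lama2: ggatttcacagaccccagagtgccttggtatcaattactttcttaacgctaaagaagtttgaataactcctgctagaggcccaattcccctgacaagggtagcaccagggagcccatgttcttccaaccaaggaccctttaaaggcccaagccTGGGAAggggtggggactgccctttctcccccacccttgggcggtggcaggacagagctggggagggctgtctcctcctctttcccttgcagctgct
Gucy1a2: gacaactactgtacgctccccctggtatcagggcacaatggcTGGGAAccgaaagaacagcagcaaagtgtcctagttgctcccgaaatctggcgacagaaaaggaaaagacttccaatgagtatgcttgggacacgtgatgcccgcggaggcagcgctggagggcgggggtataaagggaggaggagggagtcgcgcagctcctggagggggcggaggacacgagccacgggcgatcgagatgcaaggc

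Of the smooth muscle list 5 genes were tested and Mrvi1, a substrate of cGMP-dependent kinase, rose (3.05, 10.7 and 3.42 against 0.292, 0.730 and 0, log2 3.68 ± 0.51). Of 12 transcription factors tested Zic4, Heyl and Nr2f2 rose and Epas1 fell, and each of these calls was lost under at least 1 alternative. Ebf1, the most abundant factor of the list, was at 25.3, 71.4 and 27.0, against 19.7, 33.6 and 22.4 in endothelial nuclei. It was higher in each rat, but the difference did not pass the test (log2 0.39 ± 0.28, adjusted p = 0.529).

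Among secreted proteins 14 genes were tested. C7, a complement component, rose (1.08, 2.13 and 1.71 against 0.0266, 0 and 0, log2 5.25 ± 1.09, adjusted p = 4.31e-05). Kitlg, Pdgfd and Cxcl12 fell. Kitlg, the KIT ligand, was at 0, 0.533 and 0.342 against 2.82, 4.74 and 4.21 (log2 -4.27 ± 0.73). Pdgfd, a ligand of Pdgfrb, was at 0.719, 0 and 0 against 3.77, 6.02 and 3.61 (log2 -3.62 ± 0.63), so receptor and ligand lay on opposite sides of this comparison. Cxcl12, a chemokine, was at 1.44, 2.13 and 0.342 against 6.69, 8.76 and 5.52 (log2 -2.64 ± 0.49). Of the adhesion list 11 genes were tested, and Eps8 and Mcam rose, neither of which DESeq2 called. Igfbp7, an IGF-binding protein often given as a vascular marker, was at 9.52, 25.1 and 17.8 against 4.65, 11.5 and 8.52. This did not pass the test either (adjusted p = 0.0723).

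Outside the lists, the rule on the size of the difference brought out 4 further genes that rose. Il34, a ligand of the receptor Csf1r that microglia need, was at 1.62, 11.7 and 4.79 against 0.159, 0 and 0 (log2 4.74 ± 0.66, adjusted p = 9.69e-11). Gjc1, the gap junction protein connexin 45, was at 1.98, 3.73 and 3.76 against 0.133, 0 and 0.1003 (log2 4.35 ± 0.86). Adap2 had a log2 fold change of 5.86 (adjusted p = 2.44e-07) and Osbpl3 one of 4.26 ± 1.13. Osbpl3 lost its call without rat 4 (adjusted p = 0.147).

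Genes that fell included endothelial ones with 0 UMIs among 48 Rgs5/Abcc9 nuclei, for which only a bound can be given. Agbl1, an ATP/GTP-binding carboxypeptidase family member, had 929 UMIs in endothelial nuclei, at least 50.2-fold higher there. Emcn, the endothelial sialomucin endomucin, had 207 (at least 11.2-fold) and Egfl7, an endothelial secreted factor, had 117 (at least 6.32-fold). Slc6a6, the taurine transporter, had 251 (at least 13.6-fold) and Fli1, an ETS factor of endothelium, had 222 (at least 11.98-fold). Of the endothelial list 9 genes outside the rule were tested and 7 fell, of which DESeq2 did not call Erg, Vwf or Slc7a5. Because members were required to lack Cldn5 and Flt1, this count is partly set by the choice of nuclei.

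RNA of other cell types was found in both groups. Over 6 lists for astrocytes, oligodendrocytes, oligodendrocyte precursors, neurons, microglia and ependymal or choroid cells, 25 genes were tested and 0 passed in either direction. Over all genes tested 11.4% passed, so 0 of 25 says little about whether such RNA was equal in both groups. Oligodendrocyte-list UMIs stood at 142, 43.2 and 56.4 per 10000 in Rgs5/Abcc9 nuclei and 124, 53.3 and 68.1 in endothelial nuclei. In single nuclei, 19 of the 59 members had more UMIs of some other cell type's list than of the pericyte, smooth muscle and fibroblast lists together. Without those nuclei the Rgs5/Abcc9 sums held 21623 of 55661 UMIs in rat 2, 16798 of 18764 in rat 4 and 16680 of 29256 in rat 5. The levels per 10000 UMIs given here include them, and their part in differences between rats was not tested. With those nuclei left out 252 genes were called, 95 higher and 157 lower, of 856 tested.

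**Figure D4:**
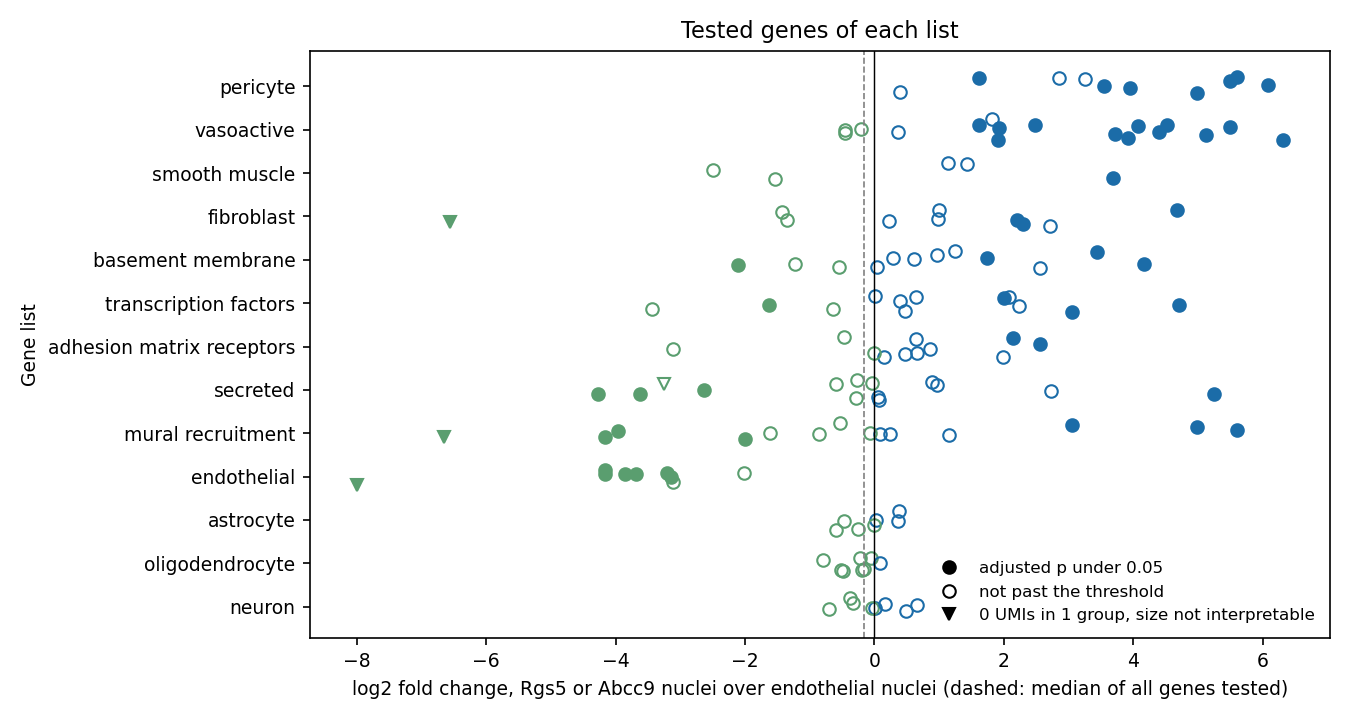
Log2 fold change of each tested gene between Rgs5/Abcc9 nuclei and endothelial nuclei, by gene list, filled where the adjusted p was under 0.05. Triangles mark genes with 0 UMIs in 1 group, whose fitted size cannot be read as a fold. The pericyte list has 7 filled points and the vasoactive list 12, all to the right, and the astrocyte, oligodendrocyte and neuron lists have none.

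The 9 Dcn nuclei were not of 1 kind. Of these, 4 carried the genes of solute-transporting vascular fibroblasts: 3 of rat 2 (6543, 4600 and 4104 UMIs) and 1 of rat 5 (4312 UMIs). Slc7a11, the cystine/glutamate exchanger, had 18, 45, 26 and 42 UMIs in them. Slc6a13, a GABA and taurine transporter, had 9, 13, 10 and 9. Bmp6, a BMP ligand, had 2, 13, 25 and 14. All 4 nuclei were high in Slc7a11 and Slc6a13, while Slc6a20 was high in the 3 of rat 2 (15, 43 and 14) and at 1 in that of rat 5. Igf2 and Igfbp2, insulin-like growth factor 2 and a binding protein, had 22, 12, 0 and 6, and 20, 18, 3 and 2 UMIs. Ptgds, the prostaglandin D synthase that leptomeningeal cells also make, had 83, 123, 8 and 15. Col1a1, the type I collagen chain, had 7, 13, 0 and 1. Lama2 had 16 UMIs in the nucleus of rat 5 and 1, 2 and 4 in those of rat 2. Slc7a11 and Slc6a13 were thus present in all 4, Col1a1 in 3. The first nucleus also had 5 Tagln, 4 Myh11 and 1 Acta2 UMIs and 23 of the smooth muscle list, against 24 in the nucleus of rat 3 described next. It had 118 UMIs of Hba-a1, a haemoglobin gene of red blood cells, and the others had 5, 0 and 0.

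The other 5 Dcn nuclei differed from these and from each other. In rat 3 the single Dcn nucleus (1922 UMIs) had 17 Myh11, 3 Acta2, 7 Jag1 and 11 Ebf1 UMIs and 0 of Slc7a11, and Myh11 and Acta2 are smooth muscle genes. In rat 5 a nucleus of 874 UMIs had 5 Dcn, 10 Col1a1, 6 Col3a1 and 3 Acta2 UMIs and 0 of Slc7a11. In rat 1 the single Dcn nucleus (2131 UMIs) had 1 Dcn and 8 Colec12 UMIs along with 8 of Slc6a3, the dopamine transporter, 4 of Th and 5 of Snap25. Its fibroblast evidence was thin, with 0 Col1a1 and 1 Col3a1 UMI. The remaining nuclei of rat 2 had 1188 and 916 UMIs, the first with 3 Col1a1 UMIs and the second with 29 of Ptgds and 2 of Slc7a11. The first 4 Dcn nuclei, set apart after their values were seen, had 35, 77, 40 and 59 UMIs of the fibroblast transporter list, and the other 5 had 0 to 3. Of the fibroblast list those 4 had 24, 41, 27 and 35 UMIs, and the nucleus of 874 UMIs had 21, a larger share of its RNA than in any of them. The 2 nuclei with Vtn and Colec12 alone had 7 and 10 Slc7a11 and 3 and 10 Bmp6 UMIs, without Dcn, Rgs5 or Abcc9.

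**Figure D5:**
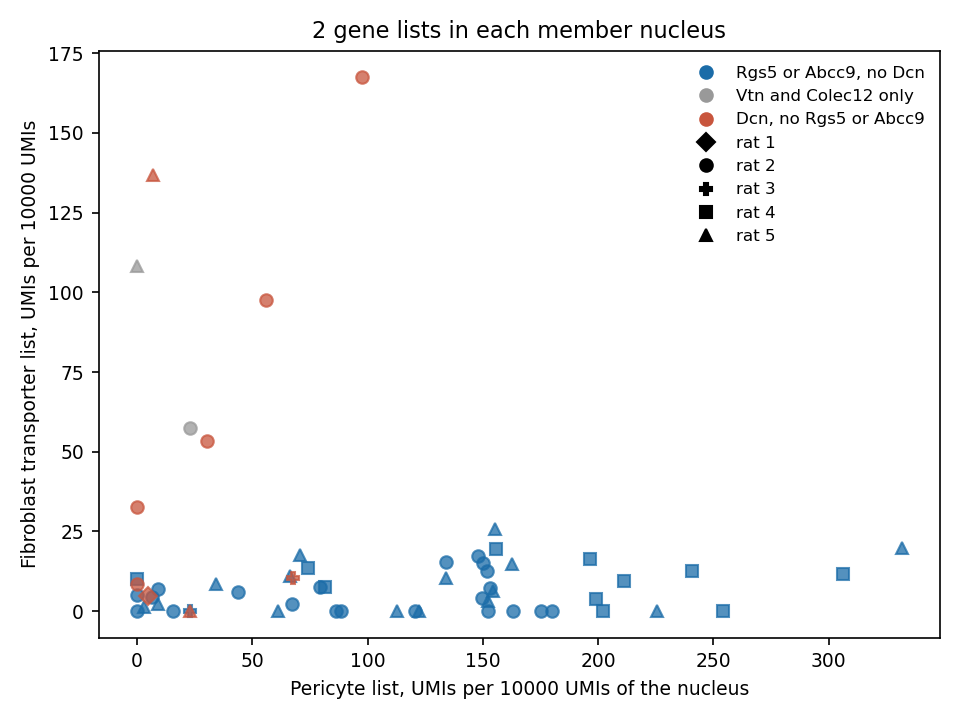
Each point is 1 member nucleus, placed by its UMIs per 10000 of the pericyte list (horizontal) and of the fibroblast transporter list (vertical), with colour for the marker group and shape for the rat. Blue Rgs5/Abcc9 nuclei run along the horizontal axis, and the highest points are Dcn nuclei of rats 2 and 5 and the nuclei with Vtn and Colec12 only, while other Dcn nuclei lie near the horizontal axis.

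Summed over nuclei, Dcn and Rgs5/Abcc9 nuclei differed in level by large ratios, given here with intervals that cover counting error only, since the nuclei came from few rats, and with the upper share of free RNA, given above, higher in Rgs5/Abcc9 nuclei, whose part in these ratios was not tested. Slc7a11 was at 50.0 per 10000 UMIs in Dcn nuclei and 0.670 in Rgs5/Abcc9 nuclei, a ratio of 74.7 (95% interval 35.3 to 189). By rat, Dcn nuclei had 0, 52.5, 0 and 81.0 in rats 1, 2, 3 and 5. Col1a1 was at 12.8 against 0.191 and was detected in 55.6% of Dcn nuclei, 2.08% of Rgs5/Abcc9 nuclei and 0.304% of oligodendrocytes. Igfbp2 was at 16.2 against 0.383, Igf2 at 16.9 against 0.574, Slc6a13 at 16.2 against 1.53 and Bmp6 at 21.4 against 1.34, with all 14 UMIs of the latter in the nucleus of rat 4 described above. Rat 2 held most of these UMIs in Dcn nuclei: without it Igfbp2 was at 2.165 against 0.2045, Igf2 at 8.66 against 0.818, Slc6a13 at 10.8 against 2.45, Bmp6 at 17.3 against 2.86 and Col1a1 at 11.9 against 0.409. Without rat 4 the ratio of Igf2 rose from 29.5 to 48.4, and Col1a1 had 0 UMIs in Rgs5/Abcc9 nuclei. Ptgds was 8.05-fold higher in Dcn nuclei (6.50 to 10.0) and 5.29-fold without rat 2. Its levels in rats 1 and 3 (4.69 and 10.4) were below the 12.4 of Rgs5/Abcc9 nuclei, where 60 of 130 UMIs lay in 1 nucleus. It is also abundant in free RNA (14.8 per 10000) and in 81.8% of oligodendrocytes. In the other direction Atp13a5 and Gucy1a2 had 0 UMIs in Dcn nuclei, so Rgs5/Abcc9 nuclei were at least 24.9-fold and 15.7-fold higher. Ebf1 was at 34.0 in Rgs5/Abcc9 nuclei and 7.90 in Dcn nuclei, the latter with 57.2 in rat 3 and 5.76 in rat 2. In endothelial nuclei Slc7a11 was at 1.29, Col1a1 at 0.542, Igf2 at 0.465 and Igfbp2 at 0.527.

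Across rats, most of these genes could not be tested, and none that was tested passed. Only rat 2 had 5 Dcn nuclei, so sums of 1 or more nuclei were used, and 52 genes had enough counts to test, among them Ptgds, Atp13a5, Gucy1a2 and Ebf1 but not Slc7a11, Col1a1, Igfbp2, Igf2, Slc6a13 or Bmp6. edgeR's quasi-likelihood test called 0 of these (0.0%), with 7 at an unadjusted p under 0.05, and DESeq2 called 2. The adjusted p was 0.103 for Ptgds and 0.26 for both Atp13a5 and Gucy1a2. On simulated counts with a log2 change of 3, the same fit recovered 13 of 13 changed genes. Those counts were drawn with a lower dispersion than the 0.217 of this fit and held no differences between rats or between nuclei of a group. The simulation thus does not give the power of this comparison. Leaving out rat 1 gave 27 calls (15 higher in Rgs5/Abcc9 nuclei) of 170 genes, and leaving out rat 3 gave 22 of 156. Without rat 2 there were 0 of only 5 genes, and without rat 5 there were 0 of 52. Rat 1 had 0 Rgs5/Abcc9 nuclei, so with rat as a block its Dcn nucleus adds nothing to the contrast itself, while the genes tested changed without it. The cause of the changes in calls was not tested.

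Dcn nuclei were also set against endothelial nuclei. Of 247 genes tested 8 were higher (3.24%) and 25 lower (10.1%) in Dcn nuclei, with edgeR and rat as a block. Lama2 was higher (log2 4.68 ± 0.84, adjusted p = 3.54e-06), but by rat it stood at 0, 5.19, 0 and 34.7 in rats 1, 2, 3 and 5. Slc6a20 was higher (log2 5.16 ± 0.90, adjusted p = 2.58e-06), with 0, 41.5, 0 and 1.93. Ptgds was higher (log2 2.86 ± 0.80, adjusted p = 0.00412), with 4.69, 142, 10.4 and 32.8, and without rat 5 its adjusted p was 0.331. For Lama2 and Slc6a20, then, rats 1 and 3 had none, and the levels of the others differed widely. Rbms3, an RNA-binding protein, was at 4.69, 8.07, 5.20 and 23.1 against 2.34 over endothelial nuclei (log2 2.74 ± 0.71, adjusted p = 0.00202). Sums of at least 5 nuclei leave the Dcn nuclei of rat 2 alone and cannot test how stable this call is. Agbl1, Slco1c1, Sorcs1 and Maml2 were lower, each with 0 UMIs in Dcn nuclei. Slco1c1, the thyroxine transporter of brain endothelium, was at least 10.3-fold higher in endothelial nuclei. Maml2, a Notch coactivator, was at least 7.32-fold higher there, whereas Rgs5/Abcc9 nuclei had it at 9.57, close to the 8.26 of endothelial nuclei (log2 -0.12 ± 0.36, adjusted p = 0.971).

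The number of UMIs per nucleus was compared between the kinds of member. The median UMI count was lower in Rgs5/Abcc9 than in Dcn nuclei in 3 of 3 rats with both, by a mean of 1501 UMIs (1372 against 2873). An exact two-sided sign-flip permutation test gave p = 0.25, the smallest that 3 rats allow, so no difference could be shown. Rat 3 gave 1 nucleus of each kind (870 and 1922 UMIs), and the Dcn nuclei of rat 5 had 874 and 4312 UMIs, the first below all 15 Rgs5/Abcc9 nuclei of that rat (minimum 903). After thinning every nucleus to 600 UMIs, the mean of the medians was 476 genes in Rgs5/Abcc9 nuclei and 476.3 in Dcn nuclei (exact p = 1.0). At that depth Atp13a5 was seen in 29 of 48 Rgs5/Abcc9 nuclei, 0 of 9 Dcn nuclei and 0.121% of oligodendrocytes, and Slc7a11 in 1, 5 and 0.859%. Glp1r, the receptor the study is about, had 0 UMIs in all 59 members.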

How the data were processed

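snRNA-seq of VTA punches used the 10x Genomics 3' v3.1 assay. UMI counts per gene and barcode were made by the authors with Cell Ranger (version 8.0.1 in the submitters' processing notes, while the file headers name Cell Ranger 4) and deposited unfiltered, before their SoupX correction, doublet removal and clustering. The genome build is not given in the sources used here, and 32883 genes were kept under the names of the files.

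Barcodes with at least 600 UMIs, more than 200 and under 5000 genes and under 5% mitochondrial UMIs were kept. Scrublet (scanpy 1.11.5) marked 3 of 35234 barcodes, so doublet calling had not worked, and no barcode was removed on it. Members, gene lists and tests were chosen with earlier results of these data known. Counts were summed per rat and group. Sums held at least 5 nuclei, or 1 where Dcn nuclei were compared, a change made after seeing that only rat 2 had 5. The fit for Rgs5/Abcc9 against endothelial nuclei also held the Dcn sum of rat 2. Sums were tested with edgeR 4.0.16 (TMM, filterByExpr, glmQLFit and glmQLFTest, rat as a block, Benjamini-Hochberg, threshold 0.05) in R 4.3.3, with DESeq2 1.42.0 as an alternative. The value after ± is the log2 fold change divided by the root of the test's F statistic. It restates the p-value and is not a spread measured over rats. Both sums of a rat come from 1 animal, and their deviations correlated at 0.39, 0.30 and 0.09 in rats 2, 4 and 5. For both comparisons with endothelial nuclei edgeR found no spread of the dispersion between genes beyond its trend, so small p-values rest on that shared spread. Each rat is 1 sample, and nuclei were not used as replicates.

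Beside genes of the 18 lists, up to 12 genes per direction were named: the largest fold changes past the threshold with the same sign in every rat with both sums and at least 20 UMIs in the higher group, passing over genes known only by an identifier or a clone name. On simulated counts with a log2 change of 3 the fit for Rgs5/Abcc9 against endothelial nuclei recovered 141 of 200 changed genes with 9 false calls among 3330, and that for Dcn nuclei 56 of 61 with 4 false calls among 247. The simulated counts held no differences between rats or between nuclei of a group, so these rates do not give the power on the real counts. Intervals and bounds (0 taken as 3 counts) cover counting error only. The alternatives were other filters, marker thresholds, scalings, tests, free RNA subtraction and leaving out each rat. Values of 1 gene counted in the lists are not reported here.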

Additional observations from a re-analysis of the deposited data

Results flagged for a closer look

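Endothelial nuclei numbered 139 in rat 2, far from the 5 to 41 of the other rats, and rat 2 also had the most passing barcodes. Among the 4 rats with Dcn nuclei, Slc7a11, Ptgds, Igf2, Igfbp2, Slc6a13, Slc6a20, Bmp6, Lama2, Col1a1 and Myh11 were screened. Single rats stood apart for 4 of these genes, in UMIs per 10000. Igfbp2 was at 23.6 in rat 2 and Slc6a20 at 41.5 in rat 2, while Lama2 was at 34.7 in rat 5 and Myh11 at 88.5 in rat 3. These sums hold 1 to 5 nuclei, and chance nominally flags about 1 in 20 such groups. That rate need not hold for sums with few or no UMIs of a gene.

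Barcodes outside the comparisons also carried the markers. In all, 86 barcodes met the marker rule but had Cldn5 or Flt1, 10 were left out only by mitochondrial RNA, 5 only by Mog and 5 only by Nyap2. The 10 with high mitochondrial RNA held 14.6 pericyte-list UMIs per 10000, and 7 of them were in rat 2. The 5 with Mog held 24.6.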

How the results depend on the processing

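Counts of called genes moved with the settings. For Rgs5/Abcc9 against Dcn nuclei 0 genes were called, against 2 by DESeq2, 6 with its size factors, 3 with no replicate block, 21 with nuclei of at least 1000 UMIs, 12 with at least 5 marker UMIs, 4 without the highest Scrublet scores (chosen after seeing the data), 3 after free RNA subtraction, 15 without nuclei with RNA of another cell type, and 0 to 27 leaving out 1 rat. For Rgs5/Abcc9 against endothelial nuclei 381 were called, against 101 by DESeq2, 201 with nuclei of at least 1000 UMIs, 253 after free RNA subtraction, 252 without nuclei with RNA of another cell type, 236 with sums of at least 10 nuclei, 60 with sums of at least 1 nucleus (chosen after seeing the data), and 204 to 361 leaving out 1 rat (204 without rat 2, 207 without rat 5). With no replicate block there were 260. For Dcn against endothelial nuclei 33 were called, against 231 with no filter on low counts, 86 with nuclei of at least 1000 UMIs, 92 with at least 5 marker UMIs, 59 after free RNA subtraction, 58 without nuclei with RNA of another cell type, 108 with sums of at least 5 nuclei, and 25 to 153 leaving out 1 rat (62 without rat 1, 153 without rat 3). The number of genes tested was the same with DESeq2, its size factors and no replicate block, and changed with the other settings that moved the counts. The cause was not tested. Sums of at least 10 nuclei could not be formed for Dcn nuclei, nor sums of at least 5 for the first comparison. For Dcn against endothelial nuclei, sums of at least 5 leave a single Dcn sum, that of rat 2. The count listed for that setting thus cannot test how stable the calls are, and no conclusion is drawn from it.

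Of the named genes called between Rgs5/Abcc9 and endothelial nuclei, 72 in number, 0 changed direction in 1078 refits and 78 refits missed the threshold. For Dcn against endothelial nuclei, 13 of 264 refits of 17 genes missed the threshold, counting refits with the single Dcn sum of rat 2.

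Requiring 3 of the 5 markers left 29 members, 93.1% of them Rgs5/Abcc9 nuclei against 81.4%. Leaving out 1 rat left 32 to 58 members (32 without rat 2), with 77.1 to 84.4% Rgs5/Abcc9 nuclei. The difference in genes per nucleus at 600 UMIs was -0.333, with a range of -3.0 to 4.0 leaving out 1 rat, and only without rat 5 did it turn positive. At 1000 UMIs it was -17.0 in 2 rats (-36.5 to 2.5 leaving out 1 rat). That of UMIs per nucleus ranged from -1726 to -1170. Few nuclei and few rats limit all results here, and genes under a few UMIs in a sum could not be assessed.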
